A study of Mus musculus with 42 samples.

Results

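The regions described here are stretches of open chromatin in mouse lung mesenchymal cells that were less accessible 14 days after bleomycin than in sham mice and whose reopening by day 56 was not recorded. They were selected on the authors' deposited region lists, by a rule with 2 parts. A region had to be lower at day 14 than in sham in the day 14 against sham list, and it had to overlap no region of the day 56 against day 14 list by as much as 1 base. The rule gave 4485 of the 8185 regions lost at day 14, out of 25518 regions in that list, of which the other 17333 were gained. The remaining 3700 lost regions overlap the day 56 against day 14 list, 3699 of them as higher at day 56 and 1 as lower, and are called reopening regions below.

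The cells came from C57BL/6 mice given bleomycin and sampled at day 14 or at day 56, and from sham C57BL/6 mice, and were sorted as Col1a2-lineage traced mesenchyme from digested lung. A second set came from CD1 mice, as Col1a1-GFP mesenchyme cultured for 5 days on collagen-coated gels of 0.2 kPa or of 32 kPa, or sorted directly from lung (sham). ATAC-seq, which reads where a transposase can cut the DNA, and RNA-seq were made in 4 libraries for each C57BL/6 group and 3 for each CD1 group. The lineage trace marks cells by Col1a2 promoter activity and the reporter by that of Col1a1, so both hold several kinds of mesenchymal cell. The C57BL/6 sort excluded CD45 and EpCAM, while the exclusion of CD31 is given for the CD1 cells only. The labels do not say whether replicates are separate animals. By Xist RNA, which marks female cells, the C57BL/6 sham and day 14 RNA libraries each include both sexes. The RNA libraries of those groups are thus not all from the same animal. P-values measure the spread between libraries, part of which may be technical.

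Bleomycin injures the lung and sets off a fibrosis that resolves in mice over weeks. During it, resident fibroblasts give up part of their resting programme, divide and lay down collagen, and later return towards rest. Distal open regions are mostly enhancers, which transcription factors hold open while they are bound.

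The region values are the authors' own log2 concentrations for each group, a log2 mean of reads in the region, and they carry no replicate values. Members lay between 0.99 and 3.29 below sham on that scale, with a median day 14 minus sham difference of -1.2. These differences chose the members and are given as a description. At the edge of the rule, the members near Tril, Phtf2 and Gm13498 had the smallest listed falls, with -0.99 each, and lost regions near Wasf3, Prm1 and Gm765 were set aside for reopening by 0.99.

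**Figure D1:**
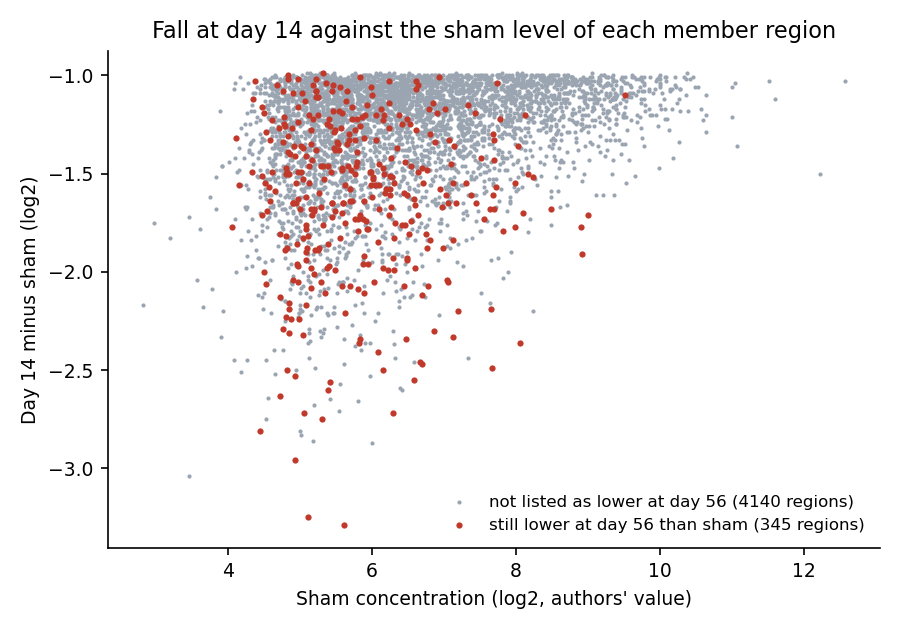
Each point is a member region; the x axis gives the authors' sham concentration (log2) and the y axis the day 14 minus sham difference (log2). The 345 regions still lower at day 56 (red) lie among the deeper falls, with a median of -1.56, against -1.19 for the 4140 others (grey).

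The largest fall was in an intergenic region at chr15:25208671-25208951 (mm10), 204953 bases from the start of Basp1, the nearest annotated gene. Its concentration was 2.32 at day 14, against 5.61 in sham. The next was an intron of the X chromosome at chrX:57060105-57060278, nearest to Htatsf1, with 1.86 at day 14 and 5.11 in sham. That call rests on an FDR of 0.0119, against 5.52e-12 for the Basp1 region. Upstream of Colgalt2, which encodes a collagen galactosyltransferase, members lay side by side at 4431 and 4679 bases from the start, with day 14 minus sham differences of -2.86 and -2.65. The other members among the 10 largest falls lie near Tmem52, Gm20319, 4930546C10Rik, Cd180, Slc44a1, Fam135b and Mir6395, at -3.04 to -2.75. All 10 had sham concentrations between 3.46 and 6.00, below the median of 6.23 for all members.

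The sequences shown are those of the 2 largest falls, of the paired Colgalt2 regions, and of 3 members that hold a glucocorticoid or androgen response element, a motif that turns up again below. The second Colgalt2 region and the Cd180, Fkbp5 and Tnxb regions were picked for printing after their values were seen. Some members with larger falls than the Colgalt2 and Cd180 regions were not printed. Of the largest falls named above, only the Cd180 region holds the element, and its day 14 call rests on an FDR of 0.0476. All sequences shown were read from the mm10 reference genome on its forward strand. Capitals mark matches on either strand to that element or to the E-box CAGCTG, and a sequence without capitals holds neither, nor the AP-1 or NFI letters given further on.
Basp1, chr15:25208671-25208951: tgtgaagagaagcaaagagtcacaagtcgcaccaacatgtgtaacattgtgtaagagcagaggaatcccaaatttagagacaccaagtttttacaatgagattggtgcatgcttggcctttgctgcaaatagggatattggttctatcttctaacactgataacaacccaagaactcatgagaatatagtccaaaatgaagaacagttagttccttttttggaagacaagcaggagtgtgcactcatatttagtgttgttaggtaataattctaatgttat
Htatsf1, chrX:57060105-57060278: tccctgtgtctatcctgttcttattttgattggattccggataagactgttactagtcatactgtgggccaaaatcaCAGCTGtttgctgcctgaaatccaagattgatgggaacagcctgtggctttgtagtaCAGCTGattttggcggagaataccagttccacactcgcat
Colgalt2, chr1:152395343-152395530: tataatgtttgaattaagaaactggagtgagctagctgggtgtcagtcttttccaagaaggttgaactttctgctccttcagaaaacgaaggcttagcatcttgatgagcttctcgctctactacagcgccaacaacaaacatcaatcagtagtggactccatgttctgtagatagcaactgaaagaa
Colgalt2, chr1:152395100-152395277: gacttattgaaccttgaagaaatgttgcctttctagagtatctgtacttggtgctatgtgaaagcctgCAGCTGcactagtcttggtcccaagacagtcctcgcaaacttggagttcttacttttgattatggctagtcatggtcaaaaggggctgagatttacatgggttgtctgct
Cd180, chr13:102316413-102316610: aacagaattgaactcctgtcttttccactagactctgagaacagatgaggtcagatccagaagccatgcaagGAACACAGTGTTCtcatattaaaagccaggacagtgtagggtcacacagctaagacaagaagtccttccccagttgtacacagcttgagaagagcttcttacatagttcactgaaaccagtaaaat
Tnxb, chr17:34676714-34676982: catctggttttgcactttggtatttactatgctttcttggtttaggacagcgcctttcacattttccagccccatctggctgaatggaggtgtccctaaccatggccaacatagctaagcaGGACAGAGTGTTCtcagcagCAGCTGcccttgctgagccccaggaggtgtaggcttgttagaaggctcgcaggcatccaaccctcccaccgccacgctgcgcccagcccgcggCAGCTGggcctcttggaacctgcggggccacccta
Fkbp5, chr17:28442365-28442460: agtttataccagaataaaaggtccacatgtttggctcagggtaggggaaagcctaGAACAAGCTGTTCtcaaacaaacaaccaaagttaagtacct

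Of the 4485 members, 345 (7.69%) overlap a region listed as lower at day 56 than in sham, 335 of them with the same start and end in both lists. The other 4140 are in neither day 56 list: they were recorded neither as reopened nor as still closed, and none was listed as higher at day 56 than in sham. Among the reopening regions 11 (0.297%) were still lower at day 56. Both the member rule and the day 56 record rest on the same sham libraries, so these counts describe the lists and are not independent of each other. Seen from the other side, 57.3% of the 602 regions listed as lower at day 56 overlap a member.

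In the still-lower members the median difference from sham was -1.56 at day 14 and -1.18 at day 56. The fall at day 56 was the smaller in 258 of them, the larger in 85 and equal in 2, among regions chosen by their day 14 fall. The lists were scaled separately, since the sham concentration of the same region was 0.20 to 0.34 higher in the day 56 list, with a median of 0.28. The Basp1 region belongs to the larger class: its day 56 minus sham difference was -1.28. In the Htatsf1 region the difference at day 56 was -3.53, the lowest of all.

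**Figure D2:**
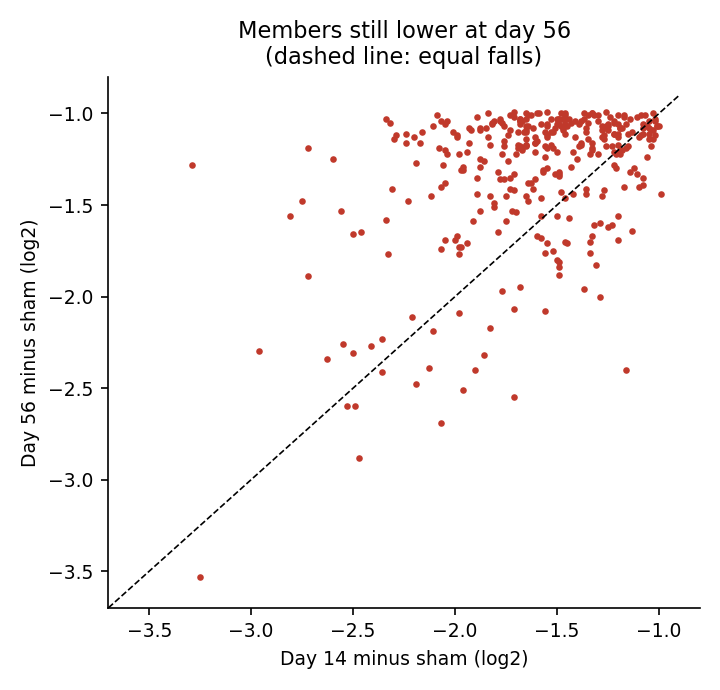
Each point is one of the 345 members still lower at day 56; the x axis is the day 14 minus sham difference and the y axis the day 56 minus sham difference, both log2. The 258 points above the dashed line of equal falls have the smaller difference at day 56, in lists that were scaled separately and among regions chosen by their day 14 fall.

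After Htatsf1, the lowest day 56 values belonged to an intronic region of Tnxb, the gene of the matrix protein tenascin-X, with a concentration of 4.10 at day 56 and 6.98 in sham. An intronic region of Ank2, an ankyrin that anchors membrane proteins, stood at 3.17 at day 56 and 5.86 in sham. A region 138583 bases from the start of Col8a1, a short-chain collagen gene, stood at 2.65 at day 56 and 5.13 in sham. The others of the 10 lie near Gm32123, Gm29687, Cxcl15, Gm7827, Rtn4rl1 and Tlr5, with differences of -2.60 to -2.40. The authors' day 56 FDR of these 10 ran from 3.53e-06 near Tlr5 to 0.0398 near Rtn4rl1, and was 0.0262 for the Ank2 region. An intronic region 43737 bases from the start of Fkbp5, a classic target of the glucocorticoid receptor, was also still lower, with 2.38 at day 56 and 4.35 in sham.

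Members were weaker and narrower in sham than the reopening regions. Their median sham concentration was 6.23, against 6.98 in reopening regions, and their median width was 265 bases, against 367. With all lost regions in 4 equal bins of sham concentration, the share that are members was 72.0% in the lowest bin, 56.8% and 48.3% in the middle bins and 42.0% in the highest. The share of members still lower at day 56 also differed along that order, at 11.4%, 8.76%, 6.1% and 1.75%. Members were also less firmly called: the median FDR was 2.94e-05 in members and 4.24e-07 in reopening regions. The day 56 lists hold only regions past the authors' limits, so absence from the day 56 against day 14 list does not show that a region stayed closed. Width and sham level move with membership, and their part in it was not tested.

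Most members lay far from a start site. By the authors' annotation 47.9% were intergenic and 44.3% intronic, against 53.2% and 41.8% of the reopening regions. Members within 1000 bases of a start site numbered 152 (3.39%), against 68 (1.84%) of the reopening regions. The median distance to the nearest start was 38782 bases in members and 44020 bases in reopening regions. On the X chromosome lay 1.90% of members and 2.95% of reopening regions.

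Motif content is given here as a description of each set of regions. Of 24 motifs searched on either strand, the glucocorticoid or androgen response element, the palindrome on which these steroid receptors sit as dimers, occurred in 8.12% of the 345 still-lower members and 4.1% of all members. It occurred in 1.78% of the reopening regions and 0.687% of the regions gained at day 14. In the central 200 bases, a window that limits the effect of width, the shares were 5.51%, 2.92%, 0.838% and 0.479% in the same order. In that window the share was also higher in members than in reopening regions within each bin of sham concentration. It was 2.36% and 0.348% in the lowest bin and 3.85% and 0.59% in the highest. Over whole regions, among lost regions with a fall of at least 2, the element occurred in 12.4% of 193 members (24 regions) and 4.12% of 170 reopening regions (7 regions). These last figures come from a split made after the values were seen, and a match is a description of letters, not a bound site.

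Members that hold the element fell a little further at day 14 than those that do not, with medians of -1.3 in 184 and -1.2 in 4301 regions. They were still lower at day 56 in 28 of 184 cases (15.2%), against 317 of 4301 (7.37%). They were also wider, at a median of 368 bases against 261, and stronger in sham, at 6.9 against 6.21. The Tnxb, Cd180 and Fkbp5 sequences above are examples, and further still-lower members with the element lie near Gm32123 and Cxcl15.

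**Figure D3:**
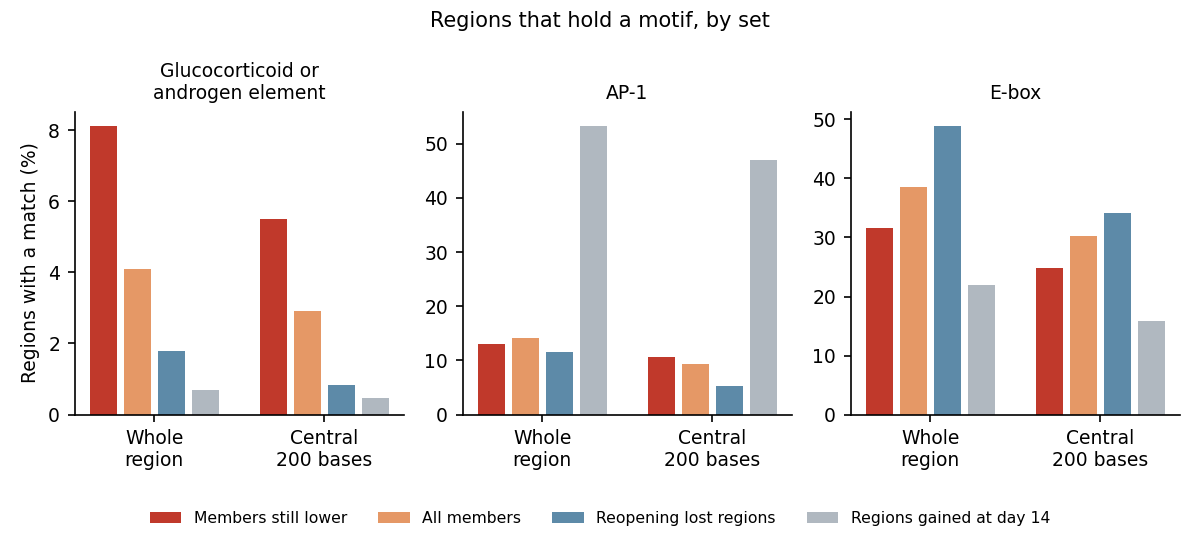
Bars give the percentage of regions with at least 1 match, for the whole region and for its central 200 bases, in 4 sets; each panel has its own axis from 0. The glucocorticoid or androgen element runs from 8.12% of still-lower members down to 0.687% of gained regions, while AP-1 stands at 53.3% in gained regions.

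The AP-1 motif TGANTCA, bound by FOS and JUN dimers, was found in 14.1% of members, 11.5% of reopening regions and 53.3% of gained regions. In the central 200 bases members had 9.39% and reopening regions 5.35%. The E-box CAGCTG, the kind that TCF21 and other basic helix-loop-helix factors bind, was found in 38.5% of members, 48.9% of reopening regions and 22.0% of gained regions. The GATA motif AGATAA was found in 11.6% of members, 18.9% of reopening regions and 12.2% of gained regions. For TTGGCA, 1 arm of the NFI palindrome, members and reopening regions stood at 21.3% and 20.9% in the central 200 bases. The median GC content was 49.3% in members and 47.4% in reopening regions.

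Culture on either gel is set against directly sorted CD1 cells, in lists that hold mostly lower regions: 41750 lower and 5725 higher on 0.2 kPa, and 41182 lower and 17328 higher on 32 kPa. The smallest absolute difference listed was 0.99 on 0.2 kPa and 0.32 on 32 kPa. The 32 kPa list thus admits smaller changes, and counts from the 0.2 kPa and 32 kPa lists are not on equal terms. On 0.2 kPa 1221 members (27.2%) overlapped a region listed as lower and 3 a region listed as higher. On 32 kPa the counts were 1218 (27.2%) lower and 14 higher, and 1211 members were lower on both. The median difference from sham at the overlapped regions was -2.74 on 0.2 kPa and -2.75 on 32 kPa. The reopening regions overlapped lower culture regions more often, at 37.4% on each gel, but the share followed the sham concentration in both sets. In the lowest bin it was 5.47% of members and 7.65% of reopening regions on 0.2 kPa, and in the highest bin 74.7% and 69.3%. In a direct comparison of the gels, 7 members were higher on 32 kPa than on 0.2 kPa and 0 lower, in a list that holds 2551 higher and 7 lower regions. Of the still-lower members 31 (8.99%) were lower on each gel. Of the 17333 regions gained at day 14, 3.22% overlapped a lower region on 0.2 kPa and 3.09% on 32 kPa. A higher region was overlapped by 15.4% of these gained regions on 0.2 kPa and 33.7% on 32 kPa.

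The members were assigned to 2919 nearest genes, 1986 of them with 1 member, 871 with 2 to 4 and 62 with 5 or more. A reopening region was assigned to 1088 of these genes too (37.3%) and a gained region to 1726. The RNA of these genes was not used by the rule. It was tested with limma on log2(normalised count + 1), with a Benjamini-Hochberg adjusted p of 0.05 as the threshold over all genes. Normalised counts here are the authors' values, rescaled by median-of-ratios factors over all libraries of a table. In bulk RNA, fewer cells of a type and less RNA per cell cannot be told apart.

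At day 14, RNA was lower than in sham in 384 of 2347 tested genes with a member (16.4%) and higher in 203 (8.65%). Over all 21077 genes tested, 6.37% were lower and 9.56% higher. The median log2 fold change was -0.17 in genes with a member and 0.05 over all genes. The share of lower genes was 38.6% (49 of 127) where a member lay within 1000 bases of the start, 24.0% within 10000 bases, 13.6% in genes with 1 member, 22.0% with 2 to 4 and 25.5% with 5 or more. On recovered reads edgeR called 406 member genes lower and 182 higher, beside 1439 lower and 1736 higher of all 16709 genes that it tested. Genes with only reopening regions had 19.3% lower, and genes with only gained regions 4.4% lower and 16.5% higher. Of 687 genes with a member but no reopening or gained region, 117 were lower.

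At day 56, the RNA of the same genes stood higher than at day 14 in 313 of 2347 (13.3%) and lower in 183 (7.8%), against 5.71% higher and 8.5% lower over all genes. Where a member lay within 1000 bases of the start, 28.3% were higher and 6.3% lower. This contrast and the day 14 against sham contrast share the day 14 libraries. Of 250 genes with a still-lower member, 35 were higher at day 56 than at day 14 and 19 lower. This comparison depends on scaling: on the values as deposited, all genes shifted by -0.19 and the members' genes split into 223 higher and 299 lower, against 775 and 3028 over all genes.

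**Figure D4:**
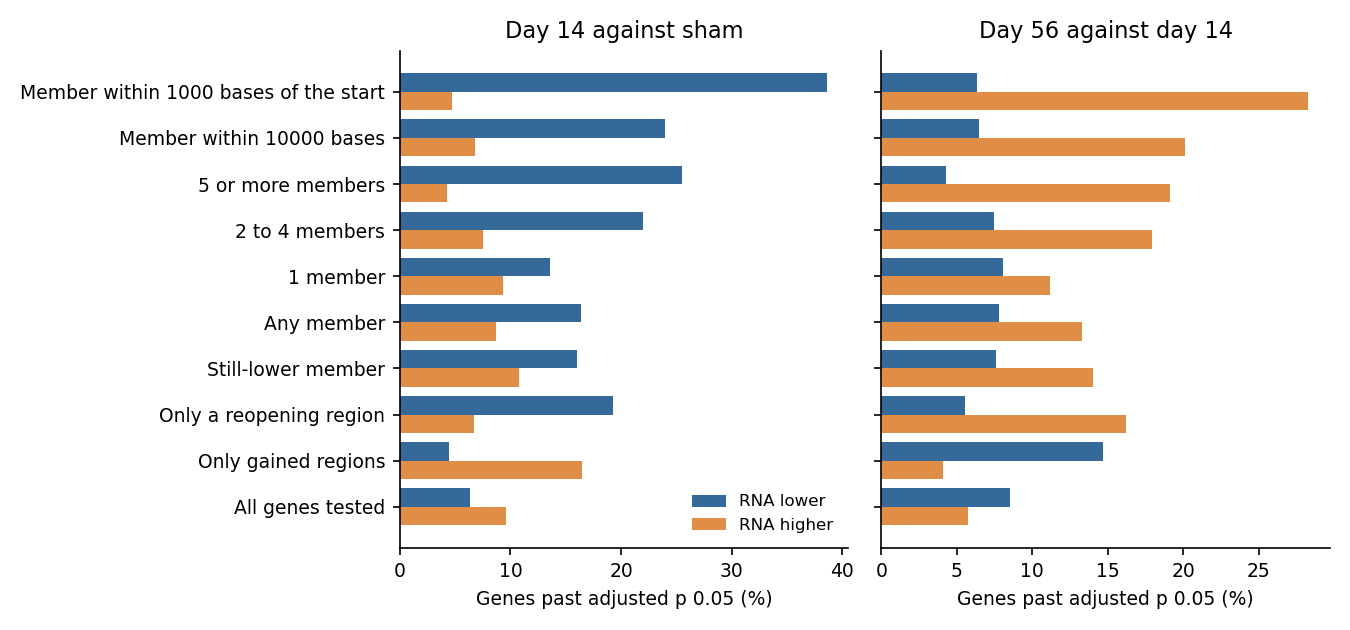
Bars give the percentage of tested genes with RNA lower (blue) or higher (orange) at an adjusted p under 0.05, by the regions assigned to the gene, at day 14 against sham (left) and at day 56 against day 14 (right). Genes with a member within 1000 bases of the start stand at 38.6% lower at day 14 and 28.3% higher at day 56 than at day 14, beside 6.37% and 5.71% of all genes. The panels share the day 14 libraries.

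Against sham, limma called 1 gene lower at day 56 (0.00474% of all genes) and 0 higher (0.0%), and the lower gene, Angpt4, is a member gene. None of the 250 genes with a still-lower member was called by limma or by edgeR. At an unadjusted p under 0.05, 149 member genes (6.35%) were lower and 62 (2.64%) higher, against 3.26% and 3.04% of all genes, and among genes with a still-lower member 22 (8.8%) were lower and 10 (4.0%) higher.

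Angpt4 encodes an angiopoietin, a secreted ligand of the receptor tyrosine kinase TIE2, which is itself encoded by Tek. It has 2 members, at 445 bases from the start (chr2:151910274-151911251, 7.27 at day 14 and 8.37 in sham) and in an exon (chr2:151938433-151939534, 9.71 and 11.07). Its RNA was 997, 832, 564 and 846 normalised counts at day 14, 936, 969, 947 and 996 at day 56, and 2592, 2256, 3105 and 3410 in sham. Neither the day 14 nor the day 56 libraries overlapped the sham libraries. The log2 fold change was -1.82 ± 0.19 (SE) at day 14 against sham (limma adjusted p = 2.40e-05) and -1.54 ± 0.19 at day 56 against sham (limma adjusted p = 0.0185). Over 19 alternatives, limma fits and an edgeR fit on recovered reads, the day 56 fold change stayed between -1.76 and -1.45. The day 56 call was lost in 7 of the 19, with limma or edgeR adjusted p between 0.00372 and 0.564 over all 19. The fits that lost it left out sham replicate 1 or 4, day 14 replicate 2 or day 56 replicate 1 or 2, or added a replicate block or a term for sex. All day 56 libraries express Xist, against 1 of 4 sham libraries. On the gels Angpt4 was lower too, with 83.2 ± 18.5 on 0.2 kPa and 43.2 ± 17.8 on 32 kPa, against 1141 ± 263 in CD1 sham (SD, n = 3 each).

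The 12 member genes with the largest falls of RNA at day 14 were all called higher at day 56 than at day 14. They were chosen by low day 14 values, and both contrasts use the same day 14 libraries, so the choice favours that direction. The choice also required that day 14 and sham libraries did not overlap, so that separation is no further result for these 12 genes. Inmt, the indolethylamine N-methyltransferase that is abundant in resting lung fibroblasts, had 17868, 10902, 18973 and 16507 normalised counts at day 14, 156747, 204384, 164192 and 121136 at day 56, and 337232, 200320, 135038 and 208737 in sham. No day 14 library came near the other groups, which overlap each other. The log2 fold change was -3.73 ± 0.26 (SE) at day 14 against sham (limma adjusted p = 1.61e-06) and 3.34 ± 0.26 at day 56 against day 14 (6.44e-06). Its members lie in an intron 699 bases from the start, with a concentration of 6.75 at day 14 and 7.82 in sham, and 7249 bases from the start, with 5.17 at day 14 and 6.72 in sham.

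Colgalt2, beside the paired regions shown above, had 42.1, 13.4, 16.8 and 57.9 at day 14, 547, 168, 425 and 590 at day 56, and 449, 734, 937 and 595 in sham. All day 14 libraries were below all others, and the day 14 fold change was -4.53 ± 0.5 (limma adjusted p = 4.27e-05). Ppl, which encodes the junctional protein periplakin, has a member 60 bases from its start (concentration 7.12 at day 14 and 8.15 in sham). Its RNA was 250, 300, 963 and 705 at day 14, 3018, 1348, 2525 and 3664 at day 56, and 3741, 5711, 5196 and 4358 in sham, a log2 fold change of -3.3 ± 0.4 at day 14 (limma adjusted p = 7.89e-05). The day 56 libraries of Ppl lay between the day 14 and sham libraries and did not overlap either.

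The others of the 12 have varied roles. Gabrb2 encodes a GABA receptor subunit, Adra1a an alpha adrenoceptor and Adcy8 an adenylyl cyclase, and their log2 fold changes at day 14 were -4.68, -3.38 and -4.43. Angptl1 encodes a secreted angiopoietin-like protein and Myoc the secreted protein myocilin, and they fell by 4.63 and by 3.7 on the log2 scale. Colq, the collagen tail of acetylcholinesterase, had a log2 fold change of -4.2, and Aass, Slc47a1 and Tmem171 had -3.37, -3.34 and -3.41. Sham libraries of Gabrb2 ran from 11.5 to 276, with 1 of them far above the rest. All exceeded the day 14 values of 0 to 2.39, as the choice of these genes required.

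The largest rises among member genes included those of dividing cells. Mki67 averaged 1280 at day 14, against 14.1 in sham, and Cdk1 996, against 14.2. Nuf2 and Pbk rose by 7.07 and 6.44 on the log2 scale. Kif26b and Plekhg4 rose by 6.95 and 6.7. All 6 genes had their nearest member 18022 bases or more from the start.

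The members gather at some genes. The largest number, 17, was assigned to Gm12724, a predicted gene whose RNA was below the filter, over a stretch of chromosome 4 that runs from 40858 to 525383 bases before its start. Klf4 and Slc14a2 had 9 each, and Asap1, Pik3r1, Ptgfr and Tns3 had 8 each, followed by 12 genes with 7. Ptgfr, the receptor of prostaglandin F2 alpha, was the gene of these with the clearest RNA change. It had 2517, 1611, 2102 and 2067 at day 14, 6005, 5848, 4699 and 5677 at day 56, and 7542, 6401, 10270 and 8482 in sham, with no overlap between any of the groups. The log2 fold change was -1.97 ± 0.17 at day 14 against sham (limma adjusted p = 7.37e-06) and 1.43 ± 0.17 at day 56 against day 14 (1.14e-04). One of its members, 159795 bases from the start, was still lower at day 56, at 4.19 against 5.25 in sham. Klf4 was lower at day 14 by 0.95 ± 0.24 (limma adjusted p = 0.0158), a call lost without sham replicate 3, day 14 replicate 2 or day 14 replicate 4, with adjusted p up to 0.0529. Asap1 (-0.44), Pik3r1 (-0.16), Tns3 (-0.12) and Slc14a2 (2.55) were not called at day 14.

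Gene lists were chosen for lung mesenchyme with earlier results of these data known, and list members with a region are given beside the whole list. Of 21 immediate-early genes, which respond within minutes to growth factors and stress, 13 have a member, and 8 of these 13 were lower at day 14 with none higher, beside 14 of all 21. Egr1 had 33712, 26857, 60904 and 48709 at day 14, 151579, 106060, 103003 and 120589 at day 56, and 75120, 142201, 205634 and 187353 in sham. The day 14 values lay below all others, with a log2 fold change of -1.81 ± 0.31 (limma adjusted p = 0.00126). Nr4a1 fell by 2.05, Btg2 by 1.62, Fos by 1.31, Ier2 by 1.19 and Junb by 0.98. Egr3, with a member 90 bases from its start, had a log2 fold change of -0.13 ± 0.39 and was not called. RNA of these genes also rises during tissue digestion, which lasted 45 minutes here, and its part in the levels was not tested.

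**Figure D5:**
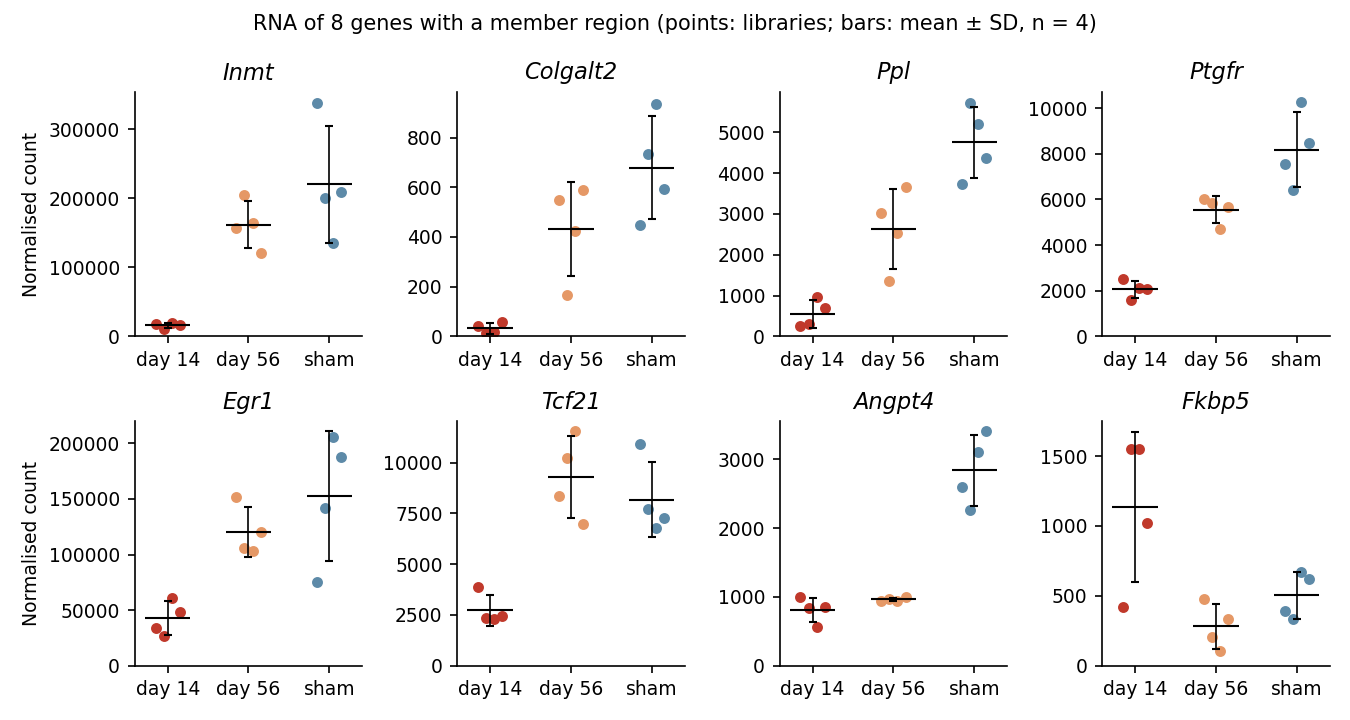
Each panel shows normalised counts of 1 gene in the 4 libraries of each C57BL/6 group, with mean and SD; each axis starts at 0. Inmt, Colgalt2, Ppl, Ptgfr, Egr1 and Tcf21 are lowest at day 14 and higher at day 56, Angpt4 stays below sham at day 56, and Fkbp5 is not lower at day 14.

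Of 32 transcription factors of lung mesenchyme, 12 have a member, and 8 of the 12 were lower at day 14 with none higher, beside 14 of all 32. Tcf21, a basic helix-loop-helix factor of lipid-laden alveolar fibroblasts, has 4 members between 37234 and 161882 bases away, with day 14 minus sham differences of -1.07 to -1.22. Its RNA was 3889, 2337, 2286 and 2429 at day 14, 8365, 10258, 11566 and 6991 at day 56, and 10906, 7742, 6803 and 7286 in sham. The log2 fold change was -1.59 ± 0.21 at day 14 against sham (limma adjusted p = 1.76e-04). Ebf1 fell by 1.52, Ebf2 by 1.28, Twist2 by 1.13 and Nfib by 0.88.

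Among markers of alveolar fibroblasts 8 of 22 have a member, of which 5 were lower and 1 higher, beside 12 and 1 of the whole list. Besides Inmt and Tcf21, Itga8 fell by 1.7 and the alcohol dehydrogenase gene Adh1 by 1.62, while the lipase gene Lpl rose by 1.4. Of 20 adventitial markers 7 have a member, with 4 lower and 1 higher, beside 10 and 2 of the whole list. Adh7, with a member 1 base from its start, fell by 2.79, Clec3b by 1.5 and Scara5 by 1.11, the last call being lost without sham replicate 3 or day 14 replicate 1, 2 or 4 (limma adjusted p up to 0.0664), and the alarmin gene Il33 rose by 1.16. Of 15 pericyte markers 5 have a member, with 3 lower and 0 higher. The 3 include Gucy1a1, which was matched to the RNA through another symbol. By list symbol alone, 4 with a member were tested and 2 were lower with 0 higher. On that basis the whole list had 3 lower and 1 higher of 13 tested. Higd1b, a pericyte marker with a member, had a log2 fold change of -2.35. In signalling by vasoactive ligands and cyclic nucleotides 9 of 20 have a member, with 5 lower and 1 higher, again with Gucy1a1 among the 5. By list symbol alone, 8 with a member were tested, with 4 lower and 1 higher. On that basis the whole list had 7 lower and 1 higher of 18 tested. Gucy1a1, a subunit of the nitric oxide receptor that is in both of these lists, had -1.19.

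Matrix genes of fibrosis went the other way. Of 24, 10 have a member, and 9 of these were higher at day 14 and 1 lower, beside 22 and 1 of the whole list. On the log2 scale Eln rose by 2.74, Col3a1 and Col5a1 by 1.97 each, Col1a2 by 1.66 and Col8a1, near a region still lower at day 56, by 1.7. Postn, the gene of the matrix protein periostin, also rose and averaged 53496 normalised counts at day 14 and 15458 in sham. The nearest members of these 6 genes lay between 10899 and 138583 bases from the start. Of 24 activation transcription factors 5 have a member, with 1 lower and 1 higher, beside 1 lower and 5 higher of the whole list. Of those with a member, Runx1 rose by 2.24 and Zeb1 fell by 0.63.

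Of 20 glucocorticoid and circadian genes 3 have a member, and 1 of these, the clock output factor Hlf, was lower at day 14, by 1.86, beside 5 lower and 0 higher of the 19 tested in the whole list. Fkbp5 had 422, 1550, 1548 and 1019 at day 14, 480, 206, 107 and 334 at day 56, and 389, 333, 668 and 623 in sham. Its day 14 and sham libraries overlap, and the log2 fold change at day 14 against sham was 1.06 ± 0.48 (limma adjusted p = 0.158). At day 56 it was lower than at day 14 by 2.04 ± 0.48 (limma adjusted p = 0.0107), while its intronic member was listed as lower than sham at both days. In limma, that call was lost without the libraries with fewer genes detected (adjusted p = 0.052) and with a term for sex (adjusted p = 0.0631).

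In culture, RNA of member genes was lower than in CD1 sham in 56.8% of 2301 tested genes on 0.2 kPa and 57.4% on 32 kPa, against 39.2% and 41.0% of all genes. It was higher in 22.8% and 23.0%, against 31.9% and 32.4% of all genes. With a member within 1000 bases, 73.2% were lower on 0.2 kPa and 72.4% on 32 kPa. Inmt had 2.05 ± 0.963 on 0.2 kPa and 18.6 ± 30.9 on 32 kPa, against 91849 ± 22437 in CD1 sham (SD, n = 3 each). Ptgfr had log2 fold changes of -7.73 and -8.43 on the gels. Tmem171 and Adh7, lower at day 14, were not lower in culture: Tmem171 rose by 2.34 on 0.2 kPa and 2.69 on 32 kPa, and Adh7 rose by 0.98 on 0.2 kPa (limma adjusted p = 0.00226), while on 32 kPa its 0.48 was not called (limma adjusted p = 0.0702).

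Markers of other cells moved with the groups. Of 16 leukocyte markers 10 were higher at day 14 than in sham, and 0 have a member. Ptprc, which encodes CD45, averaged 808 normalised counts at day 14, 246 at day 56 and 270 in sham, and Epcam 11.3, 4.48 and 6.85 in the same order. The leukocyte list had a summed level of 594 to 2256 CPM at day 14, 200 to 697 at day 56 and 249 to 384 in sham. Endothelial markers, 6 of 16 with a member, summed to 156 to 248 CPM at day 14, 183 to 251 at day 56 and 272 to 361 in sham. Of those 6 Tek was lower at day 14 and 0 were higher, beside 1 lower and 2 higher of all 16. Epithelial markers, 1 of 16 with a member, summed to 36.2 to 94.0 CPM at day 14, 56.6 to 207 at day 56 and 144 to 350 in sham. Cell-cycle genes, 2 of 15 with a member, summed to 395 to 555, 78.9 to 112 and 74.6 to 91.4. The part of these cells in the regions lost or in the RNA was not tested.

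Depth of the C57BL/6 RNA libraries ran from 14288605 to 51288435 reads and of the CD1 libraries from 35858180 to 69524944. Detected genes were fewer in sham replicates 1 and 2 and day 56 replicates 2 and 3, and Xist, which marks female cells, was expressed in sham replicate 2, day 14 replicates 1 and 2 and all day 56 libraries. Without the 4 libraries with fewer detected genes, 579 member genes were lower and 296 higher at day 14. Counts over all genes in that fit are not given here, so these counts do not show a change particular to member genes. The region lists carry no read totals, so the depth behind each concentration is unknown here.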

How the data were processed

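Members and gene lists were chosen with earlier results of these data known. Per the submitters' processing notes, tools included Bowtie2, SAMtools, MACS2, bedtools, DiffBind, HOMER, HISAT2, Picard, featureCounts and DESeq2, with mm10 as the build and no versions. The authors deposited log2 concentrations and log2 differences per group for each region, with a p-value and FDR, and normalised RNA counts per library, treated as a signal because they are counts divided by size factors. Whole reads were recovered from the RNA values for 100% of values, within 0.05 reads.

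Regions were matched by an overlap of 1 base. RNA was tested with limma 3.58.1 (R 4.3.3) on log2(rescaled value + 1) for genes with a mean of at least 1, within each table, with edgeR 4.0.16 on recovered reads as an alternative. The fit was tested on simulated data. Sequences and motifs were read from GRCm38 (mm10) with pysam 0.24.0.

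Of 2919 assigned genes, 2889 matched the C57BL/6 table and 2725 the CD1 table. Symbols turned into dates (25 and 26 rows) and 855 CD1 rows without a symbol were left out; they hold at most 4.92% of a library's reads. Regions were named by largest and smallest falls. Genes were named by the largest called RNA changes with groups apart (12 lowest, 6 highest), by most members, by calls at both days, and by list, and ties for the last place among those with most members were not named. Alternatives were stricter limits and overlaps, other scaling, filters and pseudocounts, a replicate block, a term for sex and each library left out.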

Additional observations from a re-analysis of the deposited data

Results flagged for a closer look

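In 8 of 177 groups of 4 libraries, 1 library of a named gene stood apart from the other 3 by Dixon's test at the 95% level. Chance flags about 1 group in 20. In normalised counts, the highest value of its group was 141 for Colq in day 14 replicate 1, 3889 for Tcf21 in day 14 replicate 1 and 13.4 for Myoc in day 14 replicate 2. It was 17993 for Postn in day 56 replicate 4. It was 883 for Aass and 31156 for Ier2 in sham replicate 1, and 276 for Gabrb2 in sham replicate 3. The lowest of its group was 1913 for Pik3r1 in day 56 replicate 2.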

How the results depend on the processing

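With a fall of at least 2 (log2), 193 regions remain under the rule, of which 55 were still lower at day 56, 16 were lower on each gel and 0 higher on either. With a culture fold of at least 2, 1 region was higher on 0.2 kPa and 4 on 32 kPa, and with reciprocal overlap of 50% 9 were higher on 32 kPa. In the central 200 bases the shares of members were 9.39% for AP-1, 21.3% for TTGGCA, 5.62% for the SP and KLF motif, 7.47% for GATA, 2.92% for the glucocorticoid or androgen element and 3.88% for the forkhead motif, and 7.34% for SP and KLF over 3000 bases from a start.

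Without the 4 libraries with fewer genes detected, 579 member genes had lower and 296 higher RNA at day 14, without counts over all genes beside them. In that fit Tns3 stood at 0.17 (log2). Counting only genes with a member within 10000 bases gave 148 lower (24.0%) and 42 higher (6.81%) at day 14. It gave 40 lower (6.48%) and 124 higher (20.1%) at day 56 against day 14, and 375 lower (62.7%) and 110 higher (18.4%) on each gel. Counting only genes with no reopening or gained region gave 117 lower and 52 higher at day 14, 0 lower at day 56 against sham, 45 lower and 95 higher at day 56 against day 14, 362 lower and 160 higher on 0.2 kPa, and 367 and 164 on 32 kPa. Both choices count fewer genes: 617 and 687 tested in C57BL/6, and 598 and 669 in CD1. Over all genes tested, 6.37% were lower and 9.56% higher at day 14. At day 56 against day 14, 8.5% of all genes were lower and 5.71% higher. On 0.2 kPa 39.2% of all genes were lower and 31.9% higher, and on 32 kPa 41.0% and 32.4%. On values as deposited, 2 member genes were lower at day 56 than in sham, beside 4 lower and 0 higher of all 21121 genes tested. In the same fit 299 member genes were lower at day 56 than at day 14, beside 3028 lower and 775 higher of all genes. With a term for sex 0 member genes were lower at day 56 than in sham.

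Leaving out 1 library gave 0 to 2 lower genes at day 56 against sham, 302 to 456 lower and 147 to 242 higher at day 14, and 224 to 375 higher and 123 to 211 lower at day 56 against day 14. These are counts of member genes, and counts over all genes in the same fits are not given here. Egr3 ranged from -0.41 to 0.04 and Tns3 from -0.25 to 0.02 (log2, day 14 over sham), neither called. Of 1573 gene values under alternatives, 1545 kept direction and side of the threshold, 20 lost their call, 5 gained one and 3 changed sign. The causes of these shifts were not tested.

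Libraries with the same replicate number were not known to share more than the number. Correlations of their deviations were -0.194 to 0.141 in C57BL/6 and -0.246 to 0.123 in CD1. Between libraries of different numbers they were -0.132 to 0.223 in C57BL/6 and -0.264 to 0.263 in CD1. With so few libraries per group, these ranges cannot decide whether same-numbered libraries were paired. A fit with the replicate number as a block gave 349 lower and 175 higher member genes at day 14, and 0 lower at day 56 against sham, without counts over all genes beside them.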
